A study of Mus musculus with 2 samples.

Results

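The 9 genes described here, Tmem119, Cx3cr1, Gpr34, Fcrls, Sparc, Olfml3, Slc2a5, Upk1b and Ecscr, encode surface and secreted proteins of homeostatic microglia. They were taken by name, 9 of the 31053 genes in the count matrix. They were followed across the 5328 cell barcodes in which 200 or more genes were detected and no more than 20% of UMIs were mitochondrial (UMIs are unique molecular identifiers, the tags that count captured transcripts). The questions were which of the genes were lowest in the library with barcode suffix 2, relative to the library with suffix 1, and whether they were low in the same cells.

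Single cells were sorted from the cribriform plate, the perforated bone under the olfactory bulbs, removed with the bulbs and some nasal mucosa. The gate was podoplanin positive, CD31 positive and CD45 negative, without dead cells and doublets, and aimed at lymphatic endothelial cells. Both groups were wild-type C57BL/6J females, 10 weeks old. The mice of one group had EAE, experimental autoimmune encephalomyelitis, in which an autoimmune attack on myelin inflames brain and spinal cord, and those of the other were healthy. The labels do not say how EAE was induced or on which day cells were taken. For each group 5 mice were pooled, which makes 1 sample. Which barcode suffix belongs to which group is not given in the sources used here. Values are therefore named by library 2 and library 1, and neither was assigned a condition. Neither library had a replicate, no test was possible, and each difference is one between these 2 libraries. Mouse group, pool and library preparation cannot be told apart. A lower level in a library can come from fewer cells with the transcript or from less of it per cell, and for that reason values per cell are given beside the sums.

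Microglia are the resident macrophages of the brain. In the undisturbed adult brain they carry a set of receptors and secreted proteins that few other macrophages share, and this set depends on signals from the brain such as TGF-beta. Inflammation and removal from the brain are both known to lower it. Among the surface proteins, Fcrls is an Fc receptor-like scavenger receptor of mouse microglia, Gpr34 is a receptor of lysophosphatidylserine, and Cx3cr1 is the receptor of the neuronal chemokine fractalkine. Tmem119 is a transmembrane protein used as a microglia marker, Slc2a5 is the fructose transporter GLUT5, Upk1b is a tetraspanin first known from the bladder lining, and Ecscr is a sialomucin-like protein named for endothelial cells. Sparc, a collagen-binding matricellular protein, and Olfml3, an olfactomedin-domain glycoprotein, are secreted.

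The 1922 kept cells of library 2 had a median of 9782.5 UMIs each, and the 3406 of library 1 had 7334. The libraries had 8 barcode sequences in common. Most kept cells carried microglia genes, though the sort aimed at lymphatic endothelial cells. The genes of podoplanin and CD45 were not read here. At least 6 of 7 core genes of microglia and related macrophages (among them C1qa, C1qb, C1qc, Csf1r, Tyrobp and Fcer1g) were detected in 1840 kept cells of library 2 (95.7%) and in 3296 of library 1 (96.8%). Exactly 6 were found in 12 and 45 cells and exactly 5 in 4 and 13. At least 3 of 10 endothelial markers with at most 2 core genes were found in 3 and 12 cells. Dissociation and immediate early genes made up a median of 2.33% of a cell's UMIs in library 2 and 6.30% in library 1. The median mitochondrial share was 3.74% in library 2 and 1.54% in library 1. The part of these differences in the results was not tested beyond the values given for cells of low early gene share.

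All 9 genes were lower in library 2, and 6 of them were at least 2-fold lower. Of all 13891 genes with at least 20 UMIs, 8.37% were at least 2-fold lower in library 2, and among the 3000 genes with at least 50 CPM in library 1 (UMIs of a gene per 1000000 of its library) the share was 8.4%. The median log2 ratio of library 2 over library 1 was -1.80 over the 9 genes and 0.04 over all genes with at least 20 UMIs. The sum of the 9 genes was 4417 CPM in library 2, against 11592 in library 1, or 0.442% and 1.16% of all UMIs, so their sum was 2.62-fold lower in library 2. Fcrls weighed heavily in this sum, and without it the log2 ratio of the sum was -1.06, against -1.39 with it. All ratios below are without a pseudocount, and their 95% intervals are exact and cover counting error only.

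**Figure D1:**
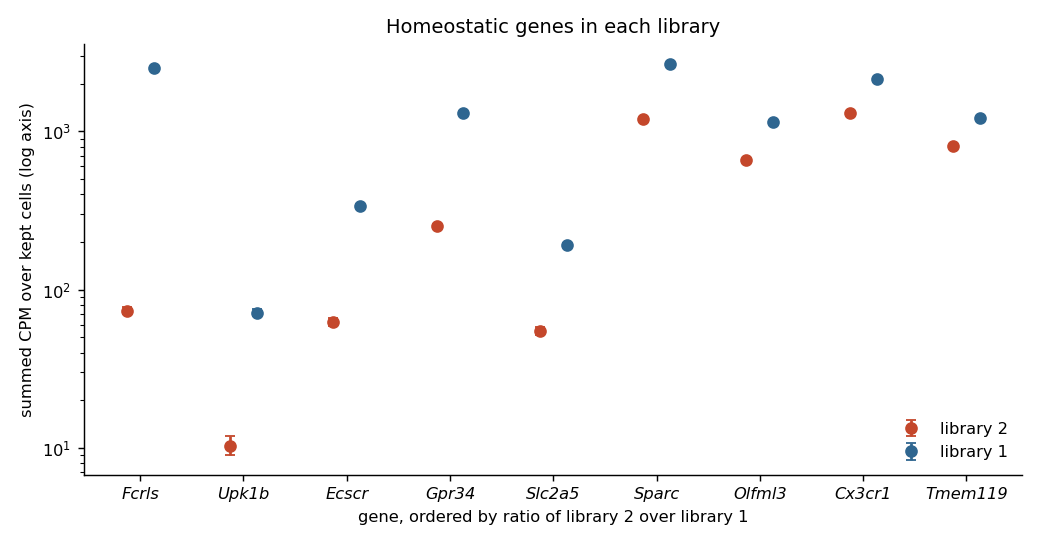
Summed level of each gene in CPM over kept cells, on a log axis, with library 2 in red left of library 1 in blue and bars for exact Poisson 95% intervals, most of which are smaller than the points. Library 2 lies below library 1 for all 9 genes, with Fcrls at 73.6 and 2527 CPM at the left and Tmem119 at 808 and 1216 CPM at the right.

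Fcrls (ENSMUSG00000015852) differed most by far. It had 1492 UMIs in library 2 and 65109 in library 1, at levels of 73.6 CPM (69.9 to 77.4) and 2527 CPM (2508 to 2546). Its level was thus 34.4-fold lower in library 2 (32.6 to 36.2), which leaves 2.91% of the level in library 1. Among 13825 genes with at least 20 UMIs in all and some in both libraries, its ratio ranked 22 from the lowest. Genes with no UMI in 1 of the libraries were not ranked. In library 2, 32.8% of cells held at least 1 UMI of Fcrls (30.7% to 35.0%), and in library 1 it was 96.8% (96.2% to 97.4%). After each cell had been thinned at random to 1000 UMIs, so that depth was equal, the shares were 6.55% and 87.1%. Fcrls was therefore not confined to a few cells in library 1, and most cells of library 2 gave none of it. Other Fc receptor-like genes, looked up after the Fcrls value was seen, were far lower in level in both libraries. Fcrl1, the next in level, had 148 and 766 UMIs. Each of the others had at most 10 UMIs in a library.

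Upk1b (ENSMUSG00000049436), the tetraspanin, came second in the size of its difference. It had 210 UMIs in library 2 and 1844 in library 1, at 10.4 CPM (9.001 to 11.9) and 71.6 CPM (68.3 to 74.9), and was 6.91-fold lower (5.99 to 8.01). It was detected in 9.001% and 30.4% of cells. Thinned to 1000 UMIs, the shares were 0.839% and 6.48%, so it was a gene of few UMIs on both sides. With a pseudocount of 10 CPM its log2 ratio was -2.003, against -2.79 without, and it came after Gpr34 and Ecscr.

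Ecscr (ENSMUSG00000073599) and Gpr34 (ENSMUSG00000040229) followed, and their intervals overlapped, so their order is not resolved. Ecscr stood at 62.6 CPM in library 2 and 340 CPM in library 1 and was 5.43-fold lower (5.12 to 5.76). The lysophosphatidylserine receptor gene Gpr34 stood at 251 and 1302 CPM and was 5.18-fold lower (5.03 to 5.34). Detection after thinning was 6.19% and 30.9% of cells for Ecscr, and 21.2% and 67.2% for Gpr34. Slc2a5 (ENSMUSG00000028976), the fructose transporter gene, stood at 54.9 CPM in library 2 and 191 CPM in library 1. It was 3.48-fold lower (3.26 to 3.72) and was found in 5.09% and 17.7% of thinned cells.

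The secreted genes differed less. Sparc (ENSMUSG00000018593) had 24135 UMIs in library 2 and 68457 in library 1, at 1190 and 2657 CPM, and was 2.23-fold lower (2.20 to 2.27). One cell of library 2 alone held 860 Sparc UMIs among its 34195. It carried all 8 genes of the collagen and bone list and 1 of 7 core genes, and the next highest cell held 67 Sparc UMIs. Within cells with at least 6 core genes, Sparc was 2.29-fold lower. Olfml3 (ENSMUSG00000027848) stood at 658 CPM in library 2 and 1153 CPM in library 1 and was 1.75-fold lower (1.72 to 1.79).

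The smallest differences belonged to Cx3cr1 and Tmem119, which are widely used to mark or sort microglia. Cx3cr1 (ENSMUSG00000052336) stood at 1308 CPM in library 2 and 2135 CPM in library 1 and was 1.63-fold lower (1.61 to 1.66). Tmem119 (ENSMUSG00000054675) stood at 808 and 1216 CPM and was 1.504-fold lower (1.48 to 1.53). Both were detected in most cells of either library: Cx3cr1 had a UMI in 93.9% of library 2 and 96.3% of library 1, and Tmem119 in 91.6% and 94.6%. Thinned to 1000 UMIs, Cx3cr1 was found in 67.9% and 84.6% of cells and Tmem119 in 51.8% and 68.8%. In cells whose early genes made up less than 4% of UMIs (1644 of library 2 and 617 of library 1), the log2 ratio of Tmem119 was -0.36, against -0.59 in all kept cells, and that of Fcrls was -5.07, against -5.10. Apart from Ecscr and Gpr34, no 2 neighbours in this order had overlapping intervals.

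Nearly all UMIs of these genes came from cells with the core genes. For 8 of the 9 genes, more than 99% of the UMIs of each library lay in cells with at least 6 core genes, down to 99.7% for Tmem119 in library 2. For Sparc the shares were 95.5% in library 2 and 99.4% in library 1. These cells held 19551759 of all 20282053 kept UMIs of library 2 and 25182504 of 25766058 of library 1. A high share alone thus does not set a gene apart, and that of Sparc in library 2 was below the share of all UMIs. This low share rests mostly on 1 cell. Of 24135 Sparc UMIs in library 2, 23057 lay in cells with at least 6 core genes. Another 860 lay in the 1 cell with all 8 collagen and bone genes. Ecscr had 99.8% of its UMIs in cells with at least 6 core genes in both libraries, but few cells with endothelial markers were present. As a background, cells with at least 3 of 10 olfactory sensory neuron markers and at most 2 core genes were used, 37 in library 2 (median depth 10764 UMIs) and 15 in library 1 (10341). In the 37 cells of library 2, 7 of the 9 genes had no UMI, which allows a share of up to 8.11% of cells for each by 3 counts and 9.49% by the exact interval. Olfml3 had a UMI in 1 of them and Sparc in 3, and for 8 genes the unthinned shares over all kept cells of library 2 lay above this background. The 9.001% of Upk1b (7.76% to 10.4%) was not shown to be above it. In the 15 cells of library 1, Fcrls and Sparc each had a UMI in 4.

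Sparc also had high levels in cells with few core genes. In cells with at least 3 of 8 olfactory ensheathing glia markers and at most 2 core genes it stood at 1378 CPM in library 2 (20 cells) and 3367 CPM in library 1 (11 cells), while Fcrls, Slc2a5, Upk1b and Ecscr had no UMI there in either library, which allows up to 16.8% and 28.5% of these cells by the exact interval. In the 3 and 12 cells with endothelial markers, Sparc stood at 2285 and 2682 CPM. Ecscr had a UMI in 2 of these 3 cells and 4 of these 12, at 169 and 87.9 CPM. In cells with at least 6 core genes it stood at 64.8 CPM in library 2 and 347 CPM in library 1. The endothelial cells were too few to compare these levels. Tmem119 was also high in 1 cell with few core genes. The cell of library 2 with 860 Sparc UMIs held 39 of Tmem119, at 1141 CPM. In library 1, 6 cells had at least 3 of 8 collagen and bone genes and at most 2 core genes. They held no Tmem119, on 3325 UMIs in all.

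The sequences just upstream of the genes are shown for Fcrls, which differed most, Sparc, which lay in the middle, and Cx3cr1, which differed little. They come from RefSeq on build GRCm38.p6, whose table held 5 of the 9 genes, and the build behind the count matrix is not given in the sources used here. Each is the stretch of 250 bases before the annotated start, 5′ to 3′ on the strand of the gene. Capitals mark matches to the motifs searched on both strands. Those were GAGGAAG, a core bound by PU.1, the lineage factor of macrophages, and TGCTGAC, which MAF factors bind. A MEF2 type pattern was CTA and TAG with any 4 bases between. The others were the SMAD palindrome GTCTAGAC, and GAAA repeated 2 bases apart, as in interferon-stimulated elements.
Fcrls, chr3:87263525-87263774, minus strand: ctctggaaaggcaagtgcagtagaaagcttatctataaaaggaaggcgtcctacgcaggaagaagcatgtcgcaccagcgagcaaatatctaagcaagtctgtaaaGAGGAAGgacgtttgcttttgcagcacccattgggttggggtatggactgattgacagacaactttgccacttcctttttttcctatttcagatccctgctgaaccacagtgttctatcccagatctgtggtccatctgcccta
Sparc, chr11:55420081-55420330, minus strand: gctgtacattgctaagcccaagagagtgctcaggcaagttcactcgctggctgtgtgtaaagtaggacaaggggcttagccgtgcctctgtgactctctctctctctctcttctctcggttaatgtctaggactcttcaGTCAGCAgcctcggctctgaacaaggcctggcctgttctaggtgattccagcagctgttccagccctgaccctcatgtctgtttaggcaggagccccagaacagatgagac
Cx3cr1, chr9:120068297-120068546, minus strand: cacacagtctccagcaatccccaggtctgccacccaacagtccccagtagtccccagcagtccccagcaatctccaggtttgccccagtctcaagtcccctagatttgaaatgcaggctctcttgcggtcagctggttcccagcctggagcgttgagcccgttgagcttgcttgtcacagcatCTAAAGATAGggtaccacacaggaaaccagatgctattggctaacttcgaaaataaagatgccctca
The PU.1 type motif lay 144 to 138 bases before the start of Fcrls, and 10.6% of all 32851 promoter stretches of that length in the table held it. The MAF motif of Sparc lay on the opposite strand, 111 to 105 bases before the start (3.81% of all). The MEF2 type pattern of Cx3cr1 lay at 67 to 58 bases (3.20%). Its 4 inner bases, which the search left free, hold a G, so a full MEF2 site is not shown. The stretches of Olfml3 and Slc2a5 held none of the 5 motifs, and no stretch of the 5 held the SMAD or the interferon motif, which 0.167% and 2.98% of all stretches did. These are matches of letters and say nothing about binding.

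Most cells of library 2 were low in the set. In cells thinned to 3000 UMIs (1861 of library 2 and 3196 of library 1, leaving out 61 and 210 shallower ones), the 9 genes summed to a median of 13 UMIs per cell in library 2, with 10% and 90% points of 5 and 23. In library 1 the median was 36, with 10% and 90% points of 21 and 52. Only 0.591% of the cells of library 2 reached the median of library 1, and 68.6% lay under its 5% point. Without Fcrls the medians were 13 and 28, 3.01% of library 2 reached the median of library 1 and 48.6% lay under its 5% point.

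**Figure D2:**
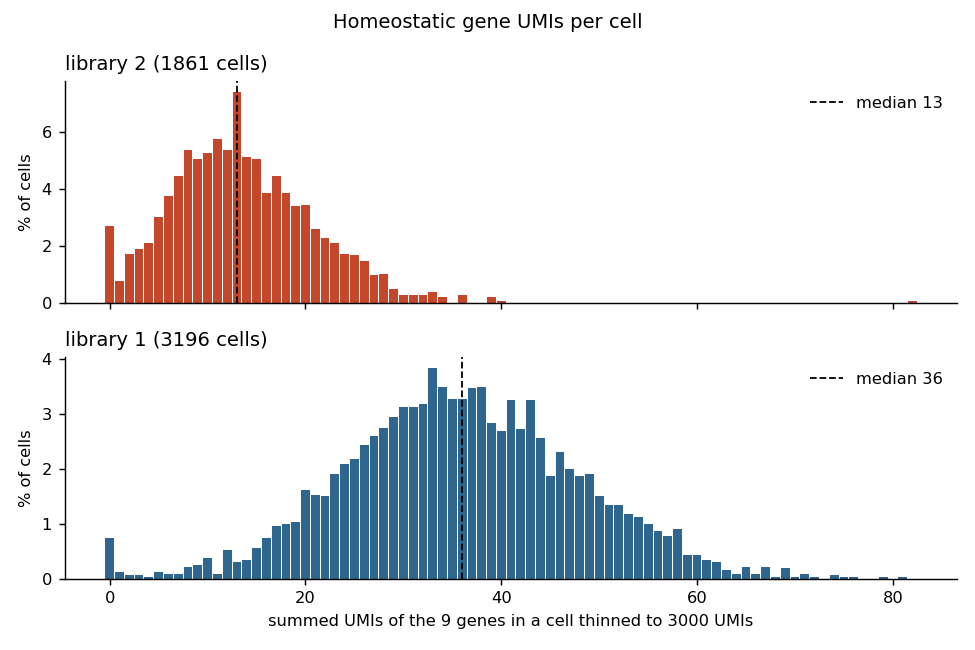
Share of cells, in percent, by the summed UMIs of the 9 genes in a cell thinned to 3000 UMIs, for library 2 above (1861 cells) and library 1 below (3196 cells), with the median of each as a dashed line. Library 2 centres on 13 UMIs and library 1 on 36, and both have a small peak at 0.

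A cell thinned to 1000 UMIs gave 2.64 of the 9 genes on average in library 2 and 5.16 in library 1. At least 6 of them were found in 1.47% and 44.9% of such cells. Without thinning, all 9 were found in 1.40% of library 2 and 21.0% of library 1. None of the 9 was found in 61 cells of library 2 (3.17%; 2.44% to 4.06%) and 34 cells of library 1 (0.998%; 0.692% to 1.39%), of which only 4 and 1 had at least 6 core genes. A complete lack of the set was thus rare among cells with the core genes.

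Whether the genes were low in the same cells was asked within each library. The number of genes detected per cell varied more than independent detection would give. Its variance was 1.46 times the sum of the single variances in library 2 and 1.48 times in library 1, a figure that includes the few cells with no core genes. Cells thinned to 3000 UMIs were then ordered by the summed UMIs of 8 of the genes and split into 5 equal bins, and the level of the gene left out was read in each bin. In library 2 all 9 genes were at least 1.5-fold higher in the top bin than in the bottom bin, where 13.4% of the 6224 other genes with at least 100 thinned UMIs were, when binned by all 9. The ratios ran between 1.85 for Cx3cr1 and 9.69 for Upk1b, with a median of 2.72 beside 1.02 over the other genes. That of Upk1b rests on 29 and 3 UMIs, with an interval of 3.004 to 49.7. In library 1 all 9 genes also passed 1.5-fold, where 11.8% of 7632 genes did. At least 1.5-fold lower in the top bin were 11.5% of these genes in library 2 and 6.56% in library 1, and none of the 9. In library 1 the ratios ran between 1.60 for Cx3cr1 and 2.51 for Slc2a5, with a median of 1.87 beside 1.10. Low levels of one gene thus went with low levels of the others within both libraries.

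Cells of another type lay in the bottom bins. Olfactory sensory neuron markers summed to 2449.5 CPM in the bottom bin of library 2 and 19.7 CPM in its top bin, and to 273 and 11.5 CPM in library 1. The bins were therefore also read in cells with at least 6 core genes only (1805 of library 2 and 3153 of library 1). All 9 genes still passed 1.5-fold in library 2, where 11.4% of genes did, and 8 of 9 did in library 1, where 12.2% did. The exception was Cx3cr1 at 1.49 in library 1. The median UMI count per cell was 9373 in the top bin and 10189 in the bottom bin of library 2, and 6947 and 7868 in library 1.

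Within those cells each gene was higher in the top bin of both libraries. Fcrls stood at 156 CPM in the top bin of library 2 and 33.2 CPM in the bottom bin, while library 1 had 3362 and 1830 CPM. Tmem119 was at 1274 and 472 CPM in library 2, and library 1 had 1530 and 886 CPM. Sparc was at 1766 and 657 CPM in library 2, and library 1 had 3251 and 2027 CPM. Gpr34 was at 391 and 172 CPM in library 2, and library 1 had 1713 and 982 CPM.

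Set against the mean of library 1, the top bin of library 2 differed by gene. Tmem119 reached 99.6% of that mean, Olfml3 80.6%, Cx3cr1 74.5% and Sparc 65.3%. Slc2a5 reached 46.0%, Upk1b 35.7%, Gpr34 28.2%, Ecscr 26.0% and Fcrls 5.91%. The bottom bin of library 1, in contrast, still held Fcrls at 69.4%, Gpr34 at 70.8% and Tmem119 at 69.3% of that mean. So the cells of library 2 that held most of the other 8 genes had Tmem119 near the mean of library 1. The top bin of library 1 had it at 120% of that mean. Fcrls in those cells of library 2 was far below the lowest bin of library 1.

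**Figure D3:**
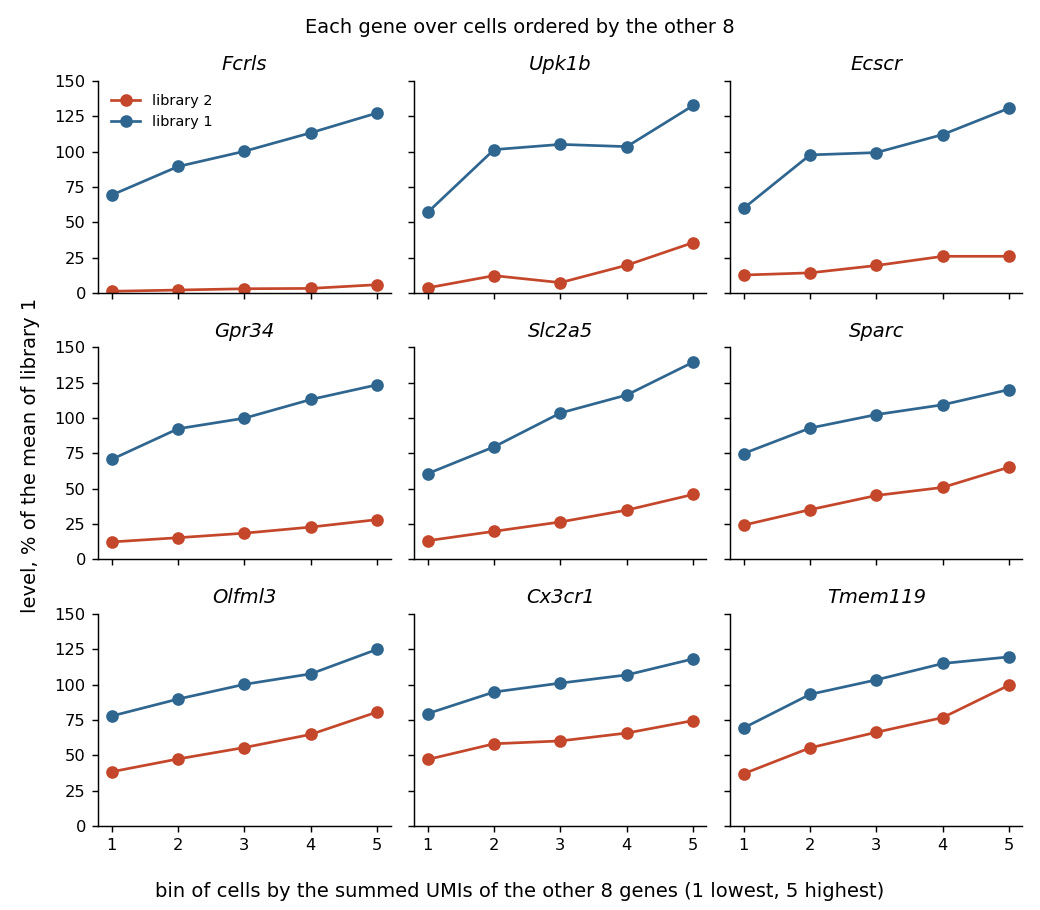
Level of each gene, as a percent of its mean in library 1, over 5 bins of cells ordered by the summed UMIs of the other 8 genes, in cells with at least 6 of 7 core genes thinned to 3000 UMIs, with library 2 in red and library 1 in blue. Each line is higher at its top bin than at its bottom bin, and the top bin of library 2 reaches 99.6% for Tmem119 and 5.91% for Fcrls.

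Because Tmem119, Cx3cr1, Olfml3 and Sparc differed least, cells of both libraries were also compared at a like sum of these 4 genes, a choice made after the values had been seen. Among cells with 16 to 19 UMIs of the 4 genes per 3000 (282 of library 2 and 579 of library 1, means of 17.3 and 17.5 UMIs), the other 5 genes were all lower in library 2. Fcrls stood at 110 CPM in library 2 and 2357 CPM in library 1 and was 21.4-fold lower. Gpr34 stood at 357 and 1311 CPM and was 3.67-fold lower, Ecscr was 3.92-fold lower, Upk1b 3.62-fold on 16 and 119 UMIs, and Slc2a5 2.24-fold. With 12 to 15 UMIs (414 and 338 cells) Fcrls was 27.0-fold lower and Gpr34 3.97-fold, and with 20 to 23 UMIs (147 and 691 cells) they were 19.3-fold and 3.55-fold lower. These folds are all smaller than in all cells with the core genes, where Fcrls was 33.9-fold and Gpr34 5.11-fold lower. Since the 4 genes were taken because they differed least, the direction of the other 5 follows in large part from that choice. Among the 4, Tmem119 was higher in library 2 at each sum, at 936 CPM in library 2 against 724 in library 1 with 12 to 15 UMIs. Sparc was 1.27-fold, 1.18-fold and 1.11-fold lower. At a like sum, lower levels of some of the 4 go with higher levels of others, so these values are not read as results.

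**Figure D4:**
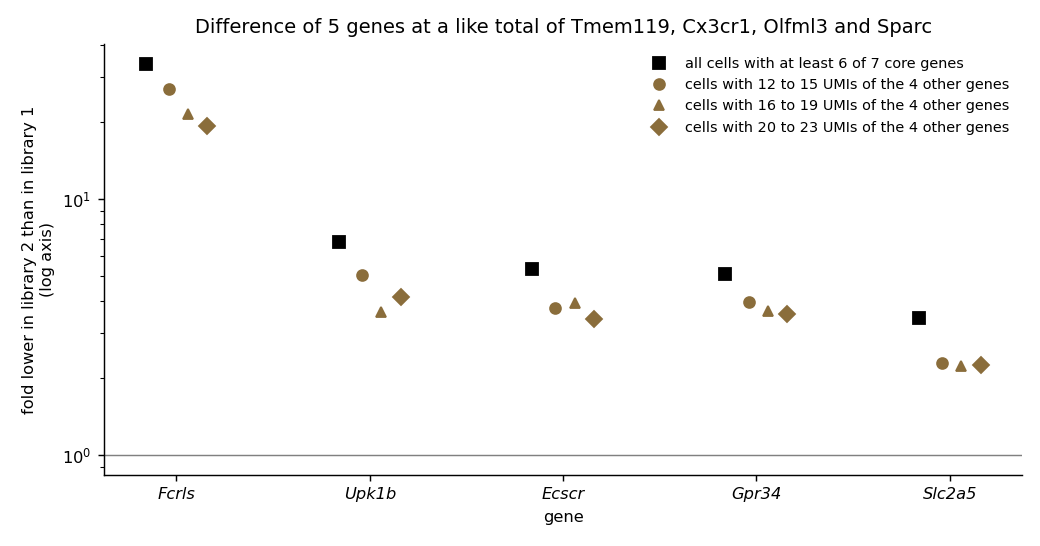
Fold by which 5 genes were lower in library 2 than in library 1, on a log axis, in all cells with at least 6 of 7 core genes (black squares) and in cells with a like sum of Tmem119, Cx3cr1, Olfml3 and Sparc per 3000 UMIs (brown symbols). All points lie above 1, between 2.24 for Slc2a5 and 33.9 for Fcrls.

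Cells of library 2 with Fcrls at the level of library 1 were very few. In cells with at least 6 core genes and thinned to 3000 UMIs, library 1 had a median of 7 Fcrls UMIs and a 10% point of 3. In library 2 the median was 0, the highest cell held 7, and 26 of 1805 cells (1.44%) held at least 3. None of these 26 cells had a barcode that library 1 also held. No Fcrls UMI was found in 82.4% of library 2 and 1.36% of library 1. For Gpr34 these shares were 51.3% and 5.68%, and for Cx3cr1 6.15% and 0.888%.

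Correlations between pairs of genes over cells were weak and positive. They describe cells of 1 library and are lowered by sparse counts, so small values are not read. Over cells thinned to 3000 UMIs, the 36 pairs had a median Spearman correlation of 0.11 in library 2 and 0.14 in library 1, beside 0.000636 and 0.000393 over all pairs of genes with at least 100 thinned UMIs. In cells with early genes under 4% of UMIs the medians were 0.12 and 0.27. The correlation was at least 0.1 in 22 and 27 of the 36 pairs, and in 0.23% and 0.044% of all pairs. All pairs were drawn from 6232 and 7641 genes and were not matched in level. Most of these genes were sparser than those described here, which ranked between 44 (Sparc) and 2118 (Upk1b) in level in library 1. In library 2 the ranks ran between 122 (Cx3cr1) and 7855 (Upk1b). The part of level in the contrast with all pairs was not tested. In cells with at least 6 core genes the medians were 0.097 and 0.126, and 17 and 23 pairs reached 0.1. In library 2 the highest values were those of Tmem119 with Sparc (0.38), Olfml3 with Sparc (0.34), and Tmem119 with Cx3cr1 (0.26). In library 1 the highest were those of Fcrls with Sparc (0.25), Gpr34 (0.25) and Olfml3 (0.24). Fcrls with Sparc stood at 0.18 in library 2, where Fcrls averaged 0.240 thinned UMIs per cell, against 7.81 in library 1.

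**Figure D5:**
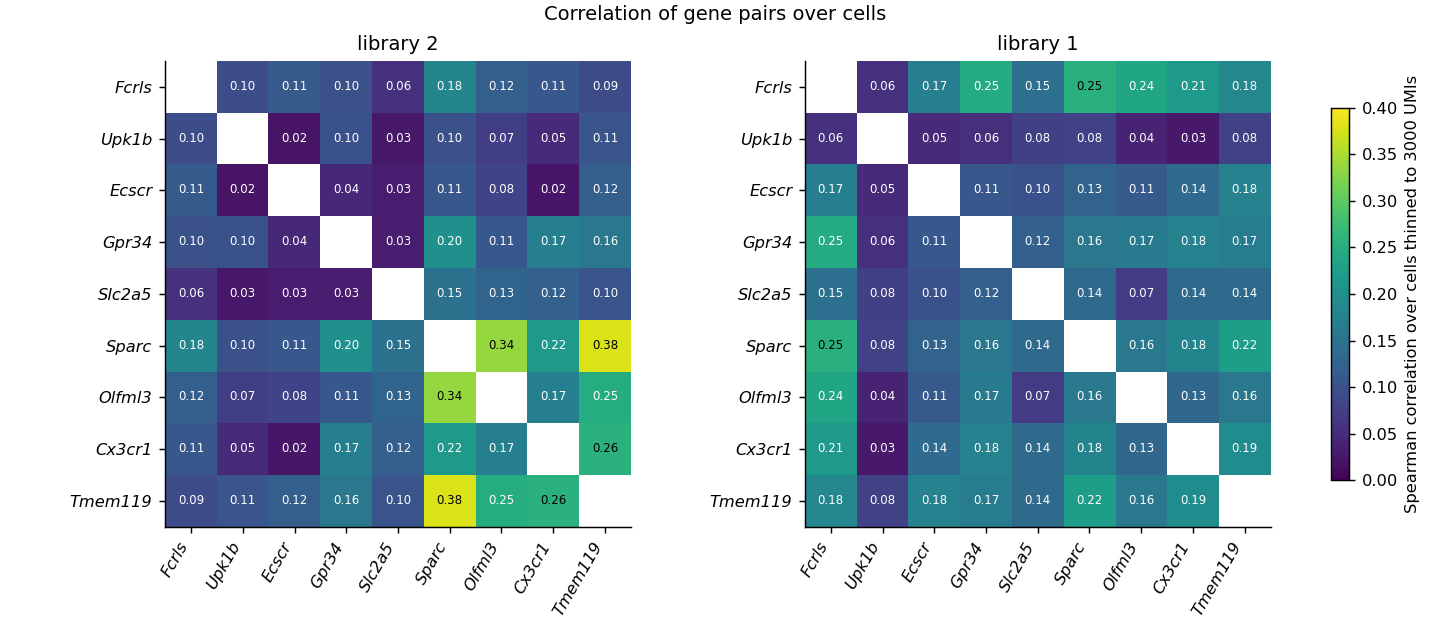
Spearman correlation of each pair of genes over cells thinned to 3000 UMIs, for library 2 on the left (1861 cells) and library 1 on the right (3196 cells), with colour and printed value giving the correlation. Tmem119 with Sparc at 0.38 is highest in library 2, and Fcrls with Sparc at 0.25 in library 1.

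Of 38 other genes of homeostatic microglia, 32 were lower in library 2 and 14 were at least 2-fold lower (8.37% of all genes), with a median log2 ratio of -0.58. None was at least 2-fold higher. Cst3, the secreted protease inhibitor cystatin C, stood at 9394 CPM in library 2 and 45032 CPM in library 1. Csf1r, the receptor that microglia need to survive, stood at 1825 and 2206 CPM. The gene with the largest difference was Hpgd, a prostaglandin-degrading enzyme, at 44.2 and 364 CPM, named after its value was seen. Its 8.23-fold difference lay between those of Fcrls and Upk1b. The 6 exceptions, also named after their values were seen, were Mertk, Sall3, Cd33, Sall1, Crybb1 and Adora3, of which the microglia transcription factor gene Sall1 stood at 127 and 119 CPM. The core genes did not share the difference, as 4 of 7 were higher in library 2 and none was 2-fold lower, with C1qa at 12750.5 and 9072 CPM.

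The genes most like the summed 9 over the 1861 cells of library 2, by Spearman correlation among 1619 other genes with at least 500 thinned UMIs, included Cst3 (0.54), the P-selectin ligand gene Selplg (0.46), the lysosomal protease gene Ctss (0.44) and Csf1r (0.37). The lowest were the ferritin gene Fth1 (-0.35), the apolipoprotein gene Apoe (-0.29), the chemokine gene Ccl5 (-0.26), the ferritin gene Ftl1 (-0.25) and Omp, a marker of olfactory sensory neurons (-0.22). Apoe stood at 12568 CPM in the top bin and 32213 CPM in the bottom bin of library 2. In library 1, over 3196 cells and 2892 genes, the highest included P2ry12 (0.44), Selplg (0.40), Cst3 (0.40) and Lgmn (0.30), and the lowest were Fth1 (-0.33), H2-D1 (-0.29), Ccl3 (-0.26), Apoe (-0.24) and Junb (-0.23). Each gene was also set against the other 8, which gave 0.45 for Sparc and 0.42 for Tmem119 in library 2 and 0.39 for Fcrls and 0.33 for Sparc in library 1.

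Programmes that microglia switch on in disease varied unequally over the bins of cells with at least 6 core genes. Disease-associated microglia genes (16 of 17 listed were in the files) summed to 33021 CPM in the top bin and 62486 CPM in the bottom bin of library 2, and to 19962 and 29916 CPM in library 1. Most of this lay in 2 genes, split off after the values were seen. Apoe was at 12532 and 36587 CPM in library 2, and library 1 had 1348 and 9230 CPM. Fth1 was at 4664 and 9477 CPM in library 2, and library 1 had 3479 and 6526 CPM. The other 14 genes were nearly level over the bins, at 15826 and 16421 CPM in library 2, and library 1 had 15135 and 14160 CPM. Interferon genes summed to 4142 and 5777 CPM in library 2 and to 257 and 1078 CPM in library 1. MHC class II genes ran in opposite directions in the 2 libraries, at 17666 and 14018 CPM in library 2 and 651 and 1861 CPM in library 1, a difference that was not tested. Early genes summed to 26131 and 19702 CPM in library 2 and to 55526 and 72563 CPM in library 1, again in opposite directions. Monocyte and macrophage markers summed to 92.3 and 172 CPM in library 2 and to 17.5 and 260 CPM in library 1. Over all kept cells these 15 markers summed to 144 and 106 CPM, and of the 12 with at least 20 UMIs 5 were higher and 7 lower in library 2. The part of these programmes in the levels of the 9 genes was not tested.

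Read the other way, with the same thinned cells split into 3 equal bins by each programme, the genes of library 2 differed among themselves. Between the highest and the lowest bin of all disease-associated genes in library 2, Upk1b had the lowest ratio, at 4.99 and 19.4 CPM on 9 and 35 UMIs. Sparc stood at 733 and 1592 CPM, Tmem119 at 555 and 1104 CPM, Slc2a5 at 43.8 and 78.1 CPM and Olfml3 at 546 and 893 CPM. The ratios of Ecscr, Fcrls, Gpr34 and Cx3cr1 were nearer to 1, at 0.732, 0.776, 0.789 and 0.893. In library 1 the ratio was 0.524 for Upk1b, 0.745 for Slc2a5 and 0.808 for Tmem119, and between 0.837 and 1.03 for the other 6 genes.

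These bins, too, rested on Apoe and Fth1. With cells split by the other 14 genes, the ratio in library 2 was 0.987 for Sparc, 0.884 for Tmem119, 0.851 for Olfml3, 0.743 for Slc2a5 and 0.959 for Cx3cr1, and 0.470 for Upk1b on 15 and 32 UMIs. Fcrls, Ecscr and Gpr34 were higher in the highest bin, at 1.58, 1.39 and 1.19. In library 1 Fcrls was at 1.27, Gpr34 at 1.17 and Upk1b at 0.738.

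Between the highest and the lowest bin of interferon genes in library 2, Gpr34 stood at 187 and 327 CPM, Fcrls at 60.5 and 102 CPM and Ecscr at 55.5 and 86.4 CPM, and Upk1b had 13 and 27 UMIs. The ratios of the other 5 genes ran between 0.848 for Cx3cr1 and 1.04 for Olfml3. In library 1 all 9 ratios ran between 0.831 and 0.933. Fcrls in the lowest interferon bin of library 2, at 102 CPM, was far under its 2449.7 CPM in the highest interferon bin of library 1. The interferon genes themselves summed to 1853 CPM in the former bin and 1618 CPM in the latter. Over all kept cells, Cxcl10 alone held 380 of the 672 CPM of this list in library 1, against 719 of 4885 CPM in library 2. Those sums thus weigh the genes unequally, and the bins of the libraries were not matched gene by gene. The part of interferon genes in the level of Fcrls was not tested. Low ratios of Fcrls and Ecscr in library 2 were not particular to interferon genes. Over bins by MHC class II genes, the ratios ran between 0.639 for Fcrls and 1.94 for Upk1b. Over bins by monocyte and macrophage markers, they ran between 0.639 for Ecscr and 1.03 for Olfml3, with Fcrls at 0.733. Over bins by early genes, they ran between 1.01 for Olfml3 and 1.77 for Upk1b. No test of these differences was possible with 1 library a side.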

How the data were processed

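Single-cell RNA sequencing counts of 2 pooled samples were used. The authors deposited raw UMI counts per gene and barcode, written by Cell Ranger 3.1.0 per the file headers. Per the submitters' processing notes, bcl2fastq and UMI-tools were used too. The sources used here do not give the genome build, the annotation or any levelling of depth between the libraries. The 9 genes, the other lists and the rule for named genes were chosen with earlier results of these data known. The rule names all 9 genes and the most abundant members of other lists; single paragraphs name some of the 9 and give the rest as ranges or not at all. Exceptions are marked as chosen after their values were seen.

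The filter of 200 genes and 20% mitochondrial UMIs removed 512 barcodes from library 2 and 432 from library 1. Doublets were gated out in the sort, per the labels, and none were called here; an alternative leaves out the deepest cells. Levels are CPM of UMIs summed per library, each with an exact Poisson interval at 95%. Ratio intervals are exact conditional binomial and shares exact Clopper-Pearson, and for a gene at 0 the share that 3 counts would make is stated. Intervals cover counting error only. Cells were thinned without replacement to 1000 UMIs for detection and 3000 for bins and correlations. Python 3.11.15, NumPy 2.4.6, SciPy 1.17.1, pandas 2.3.3 and Matplotlib 3.10.9 were used, and the steps were tested on simulated data. No p-value was computed, since each side is 1 library. Alternatives changed the cell filter, the cells used, the totals, the pseudocount, the summing, the low count filter, the thinning and the number of bins. Clec7a was not analysed here, and 1 gene of the core and homeostatic lists is not reported here by name.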

Additional observations from a re-analysis of the deposited data

How the results depend on the processing

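All 9 genes were lower in library 2, and 6 at least 2-fold, under each of 10 alternatives. Their order held in 9, of which 3 cannot change it: both scalings of the totals shift all ratios alike, and testing all genes detected leaves them as they are. A pseudocount of 10 CPM placed Upk1b (-2.003, against -2.79) behind Ecscr and Gpr34. The summed log2 ratio, -1.39, was -1.43 with no filter on cells, -1.42 without the 5% of cells with the most UMIs, -1.31 in cells with early genes under 4% of UMIs and -1.27 with totals without mitochondrial, ribosomal protein and haemoglobin genes. It was -1.43 with median-of-ratios scaling, -1.41 as the mean of per-cell CPM and, chosen after seeing the data, -1.06 without Fcrls. Leaving those classes out of the totals raised every log2 ratio by 0.12, so the median over the 9 genes was -1.68, and the pseudocount gave -1.63. The share of all genes at least 2-fold lower ran between 1.92% and 16%. The mean number of genes detected per cell, 2.64 in library 2 and 5.16 in library 1, was 2.19 and 4.95 with no filter on cells, 2.73 and 5.23 in cells with at least 6 of 7 core genes, and 5.63 and 7.55 over all UMIs. In library 1 it was 5.21 without the deepest cells and 4.85 with early genes under 4%. The median pair correlation followed the depth used: thinned to 1000 UMIs it was 0.0524 in library 2 and 0.0651 in library 1, and without thinning 0.209 and 0.254. With early genes under 4% it was 0.268 in library 1. With 3 bins in place of 5, all 9 genes passed 1.5-fold in library 2 and 7 of 9 in library 1. The cause of these changes was not tested. Reading the bins in cells with the core genes, the comparison at a like sum of 4 genes and the split of the disease-associated list were also chosen after seeing the data. No paired analysis was possible because each side is 1 library with no replicates.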

Other observations

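Dividing cells were looked at separately. Among cells with at least 6 of 7 core genes, those with at least 3 of 6 proliferation genes numbered 98 in library 2 and 22 in library 1. In library 2 the 9 genes summed to 4092 CPM in these cells and 4558 CPM in the others, and in library 1 to 9623 and 11872 CPM. Gpr34 was at 141 CPM in dividing cells and 270 CPM in the others of library 2, and library 1 had 649.5 and 1341 CPM. Olfml3 was at 853 and 669 CPM in library 2, and library 1 had 1272 and 1177 CPM. In library 1 Slc2a5 was at 73.7 CPM in dividing cells and 197 CPM in the others, Upk1b at 27.3 and 73.8 CPM and Ecscr at 142 and 350 CPM. In library 2 these 3 genes were at 45.4 and 57.8, 9.94 and 10.8, and 36.9 and 67.0 CPM. The dividing cells held 1408593 UMIs in library 2 and 366423 in library 1, so the lowest of these levels rest on few UMIs. Tmem119, Cx3cr1 and Sparc were lower in dividing cells of both libraries too, at 700.0 and 847 CPM for Tmem119 in library 2. Fcrls stood at 41.9 CPM in the dividing cells of library 2 and 2407 CPM in those of library 1.

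Cells with at least 4 of 15 monocyte and macrophage markers numbered 6 in library 2 and 38 in library 1, of which 5 and 23 held exactly 4. In library 1 they held Fcrls at 1929 CPM, Cx3cr1 at 1729 CPM, Sparc at 1281 CPM and Tmem119 at 480 CPM, beside 2527, 2135, 2657 and 1216 CPM over all kept cells. In library 2 the 6 cells held 1 UMI of Fcrls. Barcodes left out by the cell filter held the 9 genes at 423 CPM in library 2 (512 barcodes) and 660 CPM in library 1 (432 barcodes), beside 4417 and 11592 CPM in kept cells.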
